A study of Mus musculus with 6 samples.

Results

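The 10 genes described here encode proteins with which endothelial cells release, bind, import and carry fatty acids. They were chosen by symbol as genes of fatty acid binding, transport and lipoprotein lipase action, out of 53735 genes in the deposited table. All 10 were in the table, and all 10 passed the filter for testing, which asked for a mean of 10 or more normalized counts, as did 15229 genes in all. Messenger RNA of primary, unpassaged endothelial cells from mouse lung was sequenced in 4 libraries from ZMPSTE24 knockout (ko) mice and 2 from ZMPSTE24 wild type (wt) mice. Cells of both genotypes were sorted on CD31 and ICAM2 with magnetic beads, cultured on gelatin to confluence and given no treatment, and the submitters describe them as almost purely endothelial. The mice came from 2 cohorts, and the labels assign no library to a cohort. Strain, age and the deleted part of the gene are not given in the sources used here, nor whether each library came from a separate animal. The p-values therefore refer to the variation among these 6 libraries, some of which may be technical.

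Triglycerides in circulating lipoproteins are split by lipoprotein lipase at the surface of capillary endothelium, where the lipase is held by the anchor protein GPIHBP1 and restrained by ANGPTL4. The fatty acids released are taken up with the help of the receptor CD36 and of transport proteins of the SLC27 family, which also join fatty acids to coenzyme A. Small carriers of the FABP family then bind them in the cytosol. The nuclear receptor PPARγ senses fatty acids and activates several of these genes. In the lung, capillary endothelium makes GPIHBP1, whereas lipoprotein lipase, FABP4, CD36 and PPARγ are also products of alveolar macrophages.

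The libraries held 32699024 to 45613685 reads. Over all tested genes except the 10 members, the first principal component took 77.3% of the variance and parted 2 sets of libraries that each hold both genotypes. The larger set holds knockout 2, 3 and 4 with wild type 2, and the smaller set holds knockout 1 with wild type 1. Summed over 13 macrophage and leukocyte markers, the larger set stood at 26895 to 42791 normalized counts and the smaller at 7324 to 9999. Of these 13 markers, 11 were higher and 2 lower in the larger set, with a median log2 difference of 4.37. The 9 alveolar macrophage markers summed to 4746 to 8275 counts in the larger set and 230.1 to 279.5 in the smaller. The list as a whole did not share this direction. Only 5 of the 9 were tested, 3 higher and 2 lower in the larger set, with a median log2 difference of 0.13. Siglecf, a defining surface marker, stayed below 1.2 counts in every library. The 12 endothelial markers, all present in every library, summed to 43600 to 71596 counts in the larger set and 119384 to 199453 in the smaller. Fibroblast markers (7 genes) summed to 401604 to 463580 counts in knockout and 411162 to 471002 in wild type libraries. This lay above the endothelial sum in every library, although the cultures were described as endothelial. The sums are of different genes, not scaled by transcript length, and do not measure the share of either cell type. Smooth muscle and pericyte markers summed to 67090 to 126840 counts in the larger set and 216246 to 238728 in the smaller, and mesothelial markers to 8440 to 16591 in the larger set and 26118 to 60852 in the smaller. By library set the fibroblast sum was 418566 to 471002 in the larger and 401604 to 411162 in the smaller. Gene by gene, 5 of the 7 fibroblast markers were higher and 2 lower in the larger set, with a median log2 difference of 1.09. Lung epithelial markers summed to 255.4 to 589.9 counts in the larger set and 58.6 to 78.1 in the smaller, and lymphocyte markers to 0 to 3.46 in all. Adipocyte markers (10 genes), whose cells share fatty acid genes with endothelium, summed to 41.9 to 131.4 counts, of which Adrb3 held 37.7 to 119.5, while Adipoq stood between 0 and 1.15 and Cfd and Pck1 at 0. The targeted gene Zmpste24 had 5079, 3764, 3599 and 3720 counts in knockout 1 to 4 and 5503 and 4148 in wild type 1 and 2. Since the deleted part is unknown, these counts are no check of the genotype, and all directions are those of the labels.

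No fatty acid uptake gene passed the test between genotypes, and the largest estimate was that of the lipase gene Lpl, which was higher in knockout libraries. By limma with Benjamini-Hochberg adjustment, 0 of the 10 genes were called at an adjusted p under 0.05, beside 1 of 15229 genes (0.00657%) over the whole table. On the recovered reads edgeR called 0 of the 10 and 1 of all genes (0.00657%), and DESeq2 called 0 of the 10 and 7 of 15134 genes with an adjusted p (0.0463%). Without adjustment, 0 of the 10 had a p under 0.05 in limma, and 143 of all genes (0.939%). The 4 knockout and the 2 wild type values did not separate for any member, while they separated for 4.68% of all tested genes. Of the 10 differences, 4 were above 0 and 6 below, with a median log2 difference of −0.03, against 0.00 over all genes. With library set in the model beside genotype, 0 of 10 were called, as against 0.00657% of all genes, and 1 member, Lpl, had an unadjusted p under 0.05, as had 535 genes in all.

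**Figure D1:**
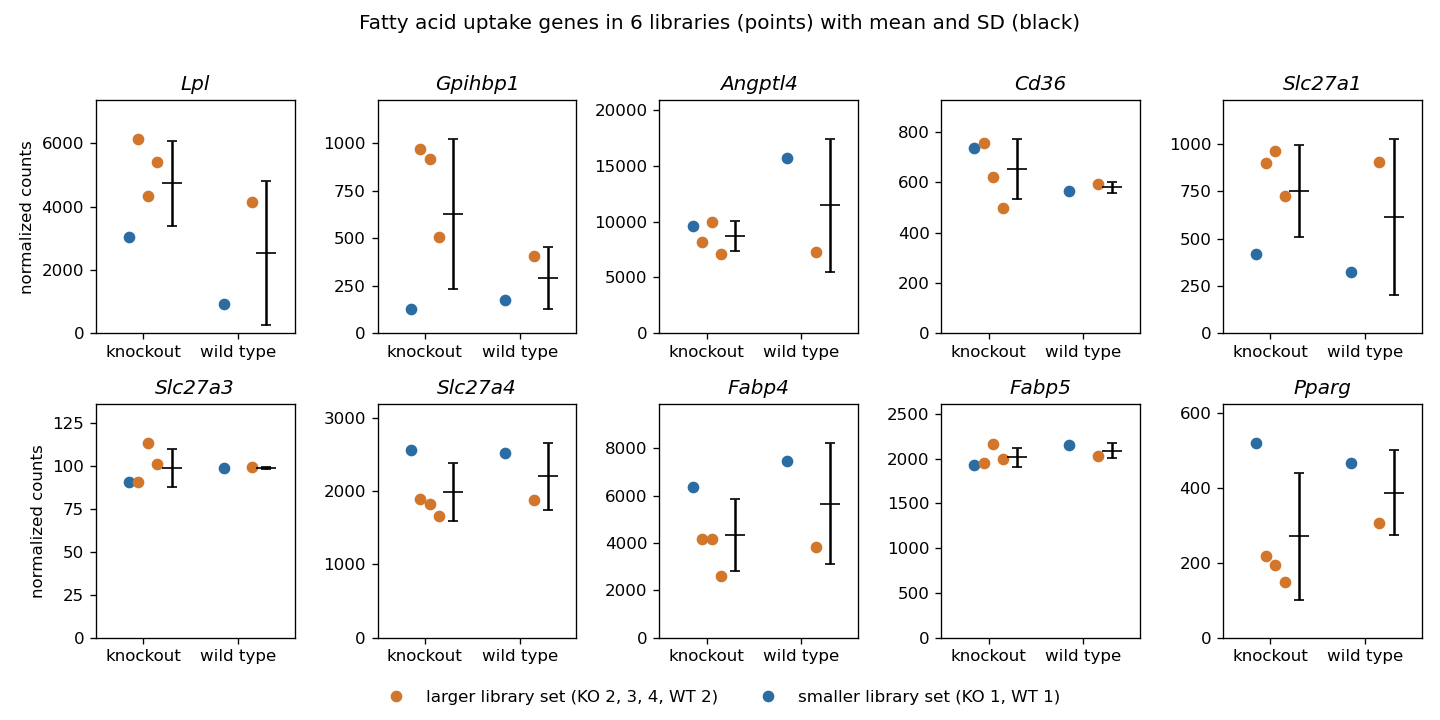
Normalized counts of the 10 genes (vertical axes from 0) in 4 knockout and 2 wild type libraries; each point is a library, coloured by library set, and black marks give the mean and SD of each genotype. In every panel the ranges of the genotypes overlap, and in Lpl, Gpihbp1, Slc27a1, Slc27a4, Fabp4 and Pparg the colours separate.

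Lpl, the gene of lipoprotein lipase, had 3036, 6140, 4344 and 5416 normalized counts in knockout 1 to 4, against 937.0 and 4141 in wild type 1 and 2. The means were 4734 ± 1351 (SD, n = 4) in knockout and 2539 ± 2265 (SD, n = 2) in wild type libraries. Knockout 1 lay below wild type 2, so the genotypes overlapped, but each knockout library lay above the wild type library of its own set. Without wild type 1 the log2 difference was 0.14 and without wild type 2 it was 2.29, so a single wild type library decides its size. Lpl was 3.24-fold above wild type 1 in knockout 1, and 1.48-fold, 1.05-fold and 1.31-fold above wild type 2 in knockout 2, 3 and 4. Lpl was the single member higher in 4 of 4 knockout libraries by this measure, which 10.1% of all tested genes were, and 0 members were lower in all 4, against 10.8% of all genes. The limma log2 difference was 1.22 ± 0.61 (SE; 95% interval −0.27 to 2.71; adjusted p = 1.00), and 0.88 ± 0.32 (SE; 0.07 to 1.69; adjusted p = 0.999) with library set in the model. Lpl is also a macrophage gene, and the macrophage and leukocyte sum was 7324 counts in knockout 1 and 9999 in wild type 1, the pair with the widest Lpl difference, and 32045, 42791 and 26895 in knockout 2, 3 and 4 against 30555 in wild type 2. The sum of the 7 fibroblast markers, dominated by the 2 type I collagen genes, was 401604 counts in knockout 1 and 411162 in wild type 1. Within that list Col3a1 went the other way, at 70028 counts in knockout 1 and 37242 in wild type 1. So did Dcn, at 25507 counts in knockout 1 and 9541 in wild type 1. In the larger set Dcn had 37382, 27204 and 31844 counts in knockout 2, 3 and 4, against 31750 in wild type 2. Of the 7 fibroblast markers, 5 were above 0 and 2 below in the genotype difference, with a median log2 of 0.56. With library set in the model the split was the same and the median was 0.01. The part of these cells in the Lpl difference was not tested.

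Gpihbp1, which encodes the anchor that carries lipoprotein lipase across capillary endothelium, had 126.3, 967.2, 917.4 and 505.7 counts in knockout 1 to 4, against 178.0 and 406.7 in wild type 1 and 2. It was thus lower in knockout 1 than in wild type 1 (0.71-fold) and higher in knockout 2, 3 and 4 than in wild type 2 (2.38-fold, 2.26-fold and 1.24-fold). The estimate was 0.86 ± 0.90 on the log2 scale (SE; 95% interval −1.34 to 3.05; limma adjusted p = 1.00), an interval that includes both directions. It was 0.35 ± 0.42 (SE; −0.71 to 1.41) with library set in the model, 0.26 without wild type 1 and 1.45 without wild type 2, and 1.505 without knockout 1. The 10 lung capillary markers, whose cells make GPIHBP1, summed to 26175, 29486, 24378 and 16148 counts in knockout 1 to 4, against 43662 and 22184 in wild type 1 and 2, a sum carried by Cd93 and Plvap. The list split between the library sets, with 5 markers higher and 5 lower in the larger set and a median log2 difference of 0.14. Among the 5 higher markers, Tbx2, Car4 and Hpgd, picked after their values were seen, differed by 2.18, 1.59 and 1.30 on the log2 scale. They do not stand for the list. The part of these cells in the Gpihbp1 values was not tested. In bulk RNA, fewer cells of a type and less RNA per cell cannot be told apart, here and for every gene below.

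Angptl4, the gene of a secreted inhibitor of lipoprotein lipase, had 9609, 8183, 9981 and 7135 counts in knockout 1 to 4, against 15660 and 7239 in wild type 1 and 2. Wild type 1 was the highest library, and all knockout libraries lay between it and a value just below wild type 2. The log2 difference was −0.30 ± 0.32 (SE; 95% interval −1.09 to 0.50; limma adjusted p = 1.00), and it was 0.26 without wild type 1 and 0.21 in the larger set alone.

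Whether the genotype difference itself differed between the library sets was tested as an interaction, the difference in the larger set minus that in the smaller. By limma 0 of 10 members and 0 of 15229 genes (0%) passed, and edgeR also called 0. Unadjusted p-values under 0.05 were reached by 2 members, Lpl and Angptl4, and by 600 genes (3.94%). The interaction was −1.35 ± 0.34 (SE, log2; 95% interval −2.28 to −0.42) for Lpl and 0.91 ± 0.33 (0.01 to 1.82) for Angptl4, both with a limma adjusted p of 0.999. The smaller set has 1 library per genotype, so these values rest on knockout 1 and wild type 1.

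**Figure D2:**
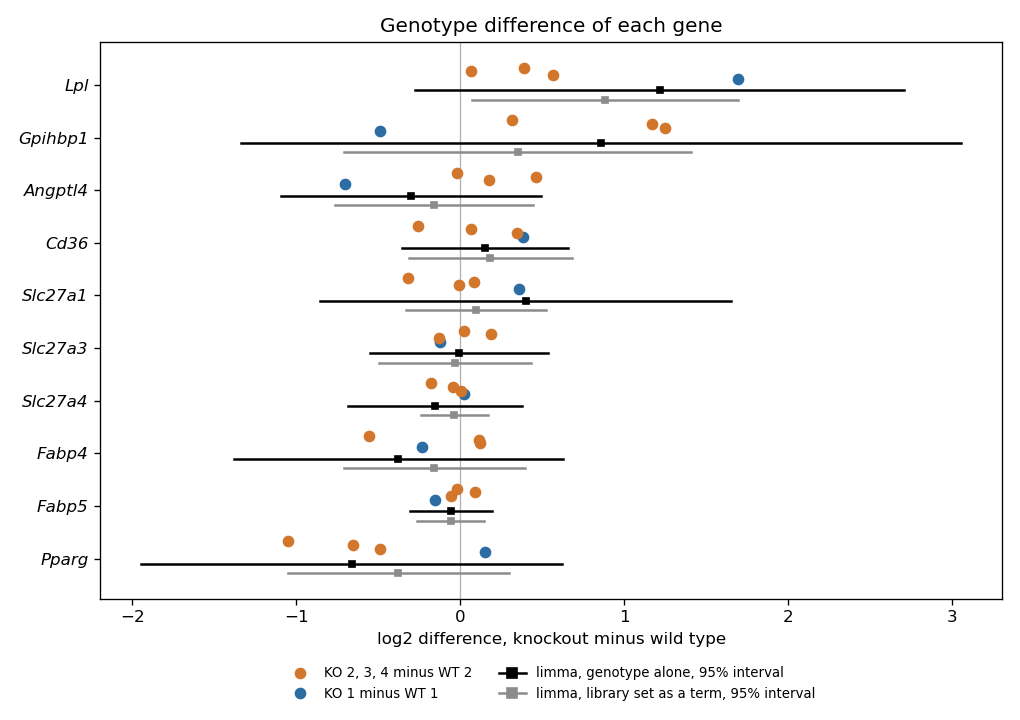
Log2 difference of each gene, knockout minus wild type; coloured points are single knockout libraries minus the wild type library of their set, and squares with lines are limma estimates with 95% intervals, with genotype alone (black) and with library set in the model (grey). Lpl is the single gene whose 4 points all lie above 0, and the interval with genotype alone includes 0 for all 10 genes.

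The balance of lipase, anchor and inhibitor transcripts varied widely between libraries. Per kilobase of transcript, Angptl4 exceeded Lpl 3.94-fold, 1.66-fold, 2.86-fold and 1.64-fold in knockout 1 to 4, against 20.8-fold and 2.17-fold in wild type 1 and 2. Wild type 1 alone stood far above the others. Lpl over Gpihbp1 was 4.82, 1.27, 0.95 and 2.15 in knockout 1 to 4, against 1.06 and 2.04 in wild type 1 and 2, and here knockout 1 was the highest. Such ratios within a library do not depend on its size factor.

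**Figure D3:**
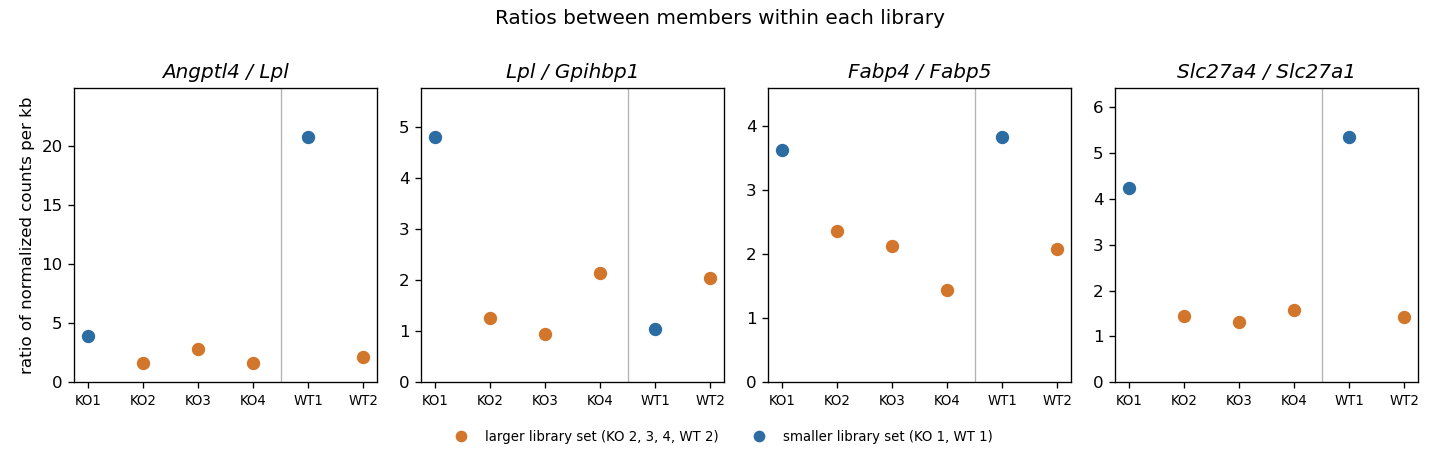
Ratios of normalized counts per kilobase between pairs of members (vertical axes from 0) in knockout 1 to 4 and wild type 1 and 2, coloured by library set. Angptl4 over Lpl reaches 20.8 in wild type 1 and stays at 3.94 or below elsewhere, and the Slc27a4 over Slc27a1 ratio separates the library sets.

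Cd36, the gene of a membrane receptor for long-chain fatty acids, had 735.4, 755.5, 621.6 and 496.6 counts in knockout 1 to 4, against 564.3 and 594.5 in wild type 1 and 2. Both wild type values lay within the knockout range. The log2 difference was 0.15 ± 0.21 (SE; 95% interval −0.36 to 0.66; limma adjusted p = 1.00). The interval leaves room for a difference in either direction. Upstream sequences were searched for the element that PPAR and its partner RXR are known to bind, AGGTCA repeated on the same strand with any 1 base between the copies, because several of these genes are known PPAR targets. RefSeq promoters of build GRCm38.p6 were matched for 5 of the 10 members, and the 250 bases before the start are shown, 5′ to 3′ on the strand of the gene. Capitals mark a single AGGTCA, the promoter element CCAAT, the start site element TATAAA or the spaced repeat with up to 2 mismatches, on either strand. AGGTCA is a part of the repeat, so these matches can overlap. The Cd36 start at chr5:17835897-17836146 (minus strand) is shown because it alone among the members' starts held a match to the spaced repeat, with 2 mismatches, beginning at position −63.
Cd36: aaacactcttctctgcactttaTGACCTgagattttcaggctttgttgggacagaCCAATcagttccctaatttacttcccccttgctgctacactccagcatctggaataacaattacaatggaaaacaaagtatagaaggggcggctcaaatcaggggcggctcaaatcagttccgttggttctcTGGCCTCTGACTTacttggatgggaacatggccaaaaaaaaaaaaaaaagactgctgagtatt
Such a match occurred in 3.24% of all 32851 promoters of this length, an exact one in 0.0335%, and CCAAT, which stands at −195, in 33.8%.

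The 3 measured SLC27 transporter genes among the members did not move together across libraries. Slc27a1 had 417.0, 900.6, 960.3 and 726.7 counts in knockout 1 to 4, against 324.5 and 905.6 in wild type 1 and 2. Slc27a4, the most abundant of the 3, had 2558, 1884, 1821 and 1661 counts in knockout 1 to 4, against 2519 and 1878 in wild type 1 and 2. Slc27a1 was thus lowest, and Slc27a4 highest, in knockout 1 and wild type 1. Slc27a3 had 90.4, 90.3, 113.2 and 100.9 counts in knockout 1 to 4, against 98.4 and 99.1 in wild type 1 and 2, a spread near that of counting alone, which gives a coefficient of variation of 10.8% at its fewest reads, 86. The log2 differences were 0.40 ± 0.51, −0.01 ± 0.22 and −0.15 ± 0.22 (SE) for Slc27a1, Slc27a3 and Slc27a4, all with a limma adjusted p of 1.00. With library set in the model the 95% interval of Slc27a4 was −0.24 to 0.17. In mice, the growth factor VEGF-B is known to induce Slc27a3 and Slc27a4 in endothelium through its receptor FLT1, and Vegfb had 702.6, 1215, 1083 and 904.4 counts in knockout 1 to 4, against 809.2 and 988.5 in wild type 1 and 2. Flt1 had 3854, 2724, 3136 and 2495 counts in knockout 1 to 4, against 9339 and 4732 in wild type 1 and 2. The genotypes thus did not overlap, as for 4.68% of all tested genes, and Flt1 did not pass the limma test (log2 −1.14, adjusted p = 1.00). All 12 endothelial markers were also below 0 in the genotype difference. The upstream sequences of Slc27a1 (chr8:71568621-71568870, plus strand) and Slc27a4 (chr2:29802384-29802633, plus strand) are shown because these genes stood on opposite sides of the library sets; for Slc27a1 the first of 3 starts is given.
Slc27a1: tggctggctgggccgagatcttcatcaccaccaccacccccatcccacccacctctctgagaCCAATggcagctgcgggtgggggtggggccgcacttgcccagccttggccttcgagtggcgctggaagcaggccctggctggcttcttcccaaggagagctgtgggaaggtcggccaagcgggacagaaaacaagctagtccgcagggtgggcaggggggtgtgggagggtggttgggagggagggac
Slc27a4: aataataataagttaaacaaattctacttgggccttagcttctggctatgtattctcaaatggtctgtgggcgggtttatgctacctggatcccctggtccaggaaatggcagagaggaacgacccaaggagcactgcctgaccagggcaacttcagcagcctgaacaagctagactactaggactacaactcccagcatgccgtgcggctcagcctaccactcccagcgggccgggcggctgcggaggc
Of the motifs searched, the Slc27a1 sequence held CCAAT at position −188, and the Slc27a4 sequence held none. Their GC content was 66.4% and 54.4%, beside a median of 52.4% over all promoters.

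Fabp4 and Fabp5, the genes of the cytosolic carriers, differed in how steady they were. Fabp4, known from capillary endothelium, adipocytes and macrophages, had 6366, 4179, 4170 and 2619 counts in knockout 1 to 4, against 7474 and 3849 in wild type 1 and 2. Knockout 4 was the lowest library and wild type 1 the highest. The log2 difference was −0.38 ± 0.41 (SE; 95% interval −1.38 to 0.63; limma adjusted p = 1.00), and 0.10 without wild type 1. Fabp5, expressed in many cell types, had 1936, 1955, 2164 and 2003 counts in knockout 1 to 4, against 2151 and 2034 in wild type 1 and 2. Its highest library was 1.12 times its lowest, the narrowest range among the 10 genes. For Fabp5 the log2 estimate was −0.06 ± 0.10 (SE; 95% interval −0.31 to 0.20; limma adjusted p = 1.00), so a change of 1.5-fold or more lies outside the interval. The annotation holds 5 processed pseudogenes that match Fabp5 at 93.6% to 98.3% over 336 to 409 nt, so reads of Fabp5 could be split or lost, and its level is uncertain to that extent. The copy found in the deposited table stood at 0 in every library, and the others were not in it under these names. Fabp4 per kilobase was 3.62, 2.35, 2.12 and 1.44 times Fabp5 in knockout 1 to 4, against 3.83 and 2.09 times in wild type 1 and 2.

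Pparg, the gene of the nuclear receptor, had 518.7, 218.1, 194.6 and 147.4 counts in knockout 1 to 4, against 466.9 and 306.5 in wild type 1 and 2. In the larger set all 3 knockout libraries lay below wild type 2, at 0.71-fold, 0.64-fold and 0.48-fold, whereas knockout 1 lay above wild type 1 at 1.11-fold. The log2 difference was −0.66 ± 0.52 (SE; 95% interval −1.94 to 0.62; limma adjusted p = 1.00), and −0.38 ± 0.27 (SE; −1.05 to 0.30) with library set in the model. Pparg and 2 genes that PPARγ is known to activate, Fabp4 and Lpl, did not share an order across libraries, since Pparg and Fabp4 were highest in knockout 1 and wild type 1 and Lpl was lowest there. The upstream sequence of the first of 3 starts of Pparg (chr6:115360894-115361143, plus strand) is shown for the AGGTCA at position −28, a motif found in 14.0% of all promoters.
Pparg: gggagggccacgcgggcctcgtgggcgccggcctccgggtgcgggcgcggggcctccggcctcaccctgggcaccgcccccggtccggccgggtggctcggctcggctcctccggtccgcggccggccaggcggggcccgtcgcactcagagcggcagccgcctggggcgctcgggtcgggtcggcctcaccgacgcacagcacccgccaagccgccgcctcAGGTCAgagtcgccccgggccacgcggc
Its GC content was 82.4%. The second start (chr6:115362099-115362348, plus strand), not shown, also held an AGGTCA, at position −9, with TATAAA at −29 and CCAAT at −83. Pparg overlaps an antisense gene, Gm44079, whose exons lie outside those of Pparg.

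In build GRCm38 (GENCODE M21) the lipase gene Lpl lies at chr8:68880491-68907448 (plus strand), Gpihbp1 at chr15:75596628-75599481 (plus) and Angptl4 at chr17:33773750-33781830 (minus). Cd36 lies at chr5:17781690-17888801 (minus), Slc27a1 at chr8:71568882-71587302 (plus), Slc27a3 at chr3:90385239-90389938 (minus) and Slc27a4 at chr2:29802634-29817522 (plus). Fabp4, at chr3:10204088-10208576 (minus), and Fabp5, at chr3:10012548-10016607 (plus), lie on the same chromosome, and Pparg lies at chr6:115360951-115490399 (plus).

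Per kilobase of the principal transcript, the order of the mean levels over the 6 libraries was Fabp4, Angptl4, Fabp5, Lpl, Gpihbp1, Slc27a4, Slc27a1, Cd36, Pparg and Slc27a3. Fabp4 averaged 5331 ± 1999 (SD, n = 6) normalized counts per kilobase, Angptl4 2912 ± 961 and Fabp5 2067 ± 98.4. Lpl averaged 972.6 ± 449 per kilobase, Gpihbp1 626.5 ± 435 and Slc27a4 506.5 ± 94.8. Slc27a1 averaged 252.5 ± 97.6 per kilobase, Cd36 184.8 ± 29.5, Pparg 174.7 ± 86.3 and Slc27a3 43.7 ± 3.72. The ranges over libraries overlapped between neighbours in this order, except that Fabp5 lay wholly above Lpl, Slc27a4 wholly above Slc27a1 and Pparg wholly above Slc27a3.

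Several of these genes differed widely between the library sets, which is given as a description, since the sets were found in the data. For 6 of the 10 genes the sets did not overlap, a share close to the 63.4% among all tested genes. Gpihbp1 was 3.70-fold, Lpl 2.76-fold and Slc27a1 2.39-fold higher in the larger set, as means of the difference within each genotype. In the smaller set Pparg was 2.07-fold, Fabp4 1.86-fold and Slc27a4 1.39-fold higher. An absolute log2 difference above 1 between sets was found in 4 members and in 18.6% of all tested genes. Fabp5, Slc27a3 and Cd36 hardly differed, with log2 differences of −0.0034, 0.08 and −0.09 (larger minus smaller set). Macrophage, endothelial, smooth muscle, mesothelial, fibroblast and lung epithelial marker sums parted the same libraries, and their part in the members' levels was not tested.

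**Figure D4:**
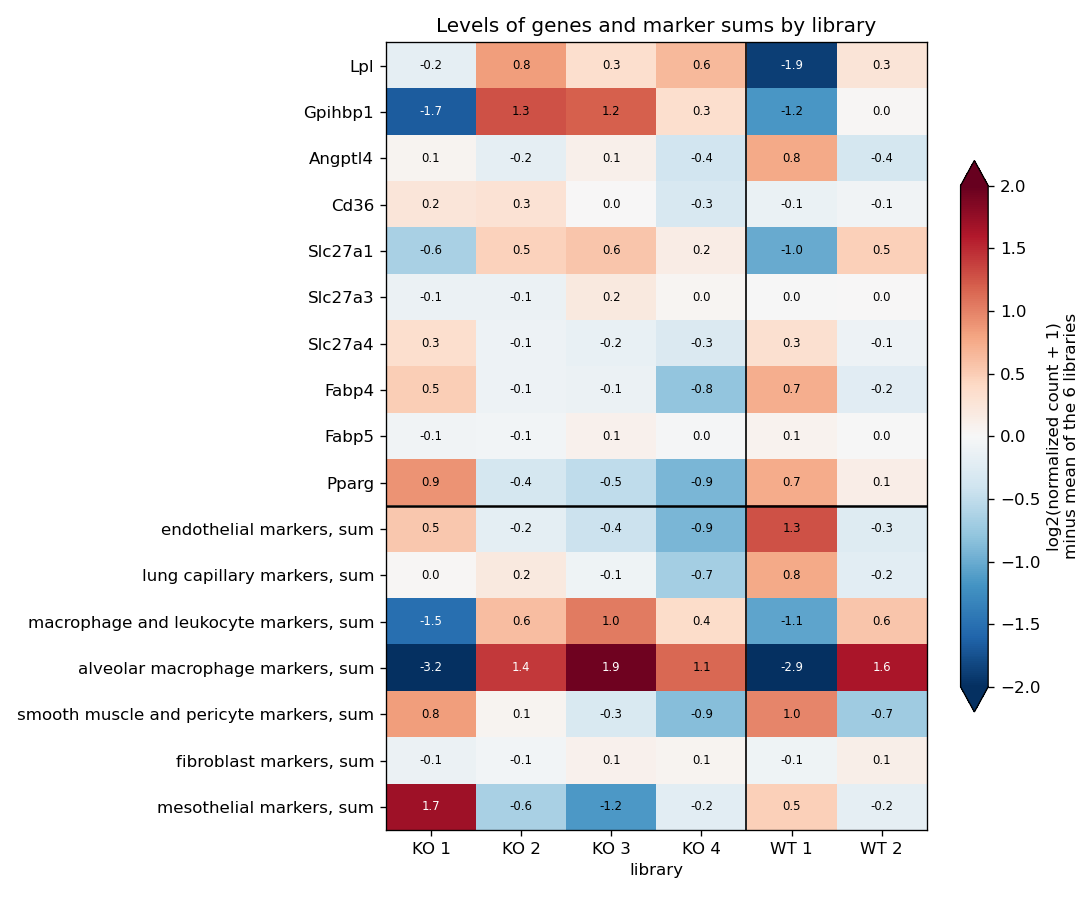
Log2(normalized count + 1) of the 10 genes and of 7 summed marker lists in each library, relative to the mean of the 6 libraries on that line; colours end at ±2. Lpl, Gpihbp1 and Slc27a1 are low in knockout 1 and wild type 1, as are the sums of both macrophage lists. Fabp4 and Pparg are high there, as are the sums of the endothelial and smooth muscle lists. A sum can be carried by a few genes of its list.

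The 12 endothelial markers summed to 119384 counts in knockout 1 against 199453 in wild type 1, with 1 library per genotype in that set. In the larger set the sums were 71596, 61007 and 43600 in knockout 2, 3 and 4 against 68941 in wild type 2. The knockout sums there lay on both sides of the wild type sum. All 12 were below 0 in the genotype difference (median log2 −0.74, and −0.45 with library set in the model), with 0 called by limma. Set against each library's endothelial sum, a scale chosen after the values were seen, 5 members (Lpl, Gpihbp1, Angptl4, Cd36 and Fabp4) were higher in 4 of 4 knockout libraries than in the wild type of the set, against 1 member on the deposited scale. Of all tested genes 38.5% were higher in 4 of 4 on this scale, against 10.1% on the deposited one, and the members' count is to be read against that share. The endothelial sum was lower in knockout 1, 3 and 4 than in the wild type of the set, which raises every gene there. Per 1000 endothelial counts, Gpihbp1 stood at 1.06, 13.5, 15.04 and 11.6 in knockout 1 to 4, against 0.892 and 5.90 in wild type 1 and 2. Fabp4 stood at 53.3, 58.4, 68.4 and 60.1 in knockout 1 to 4, against 37.5 and 55.8 in wild type 1 and 2. The knockout 1 value of Gpihbp1 is thus below wild type 1 on the deposited scale and above it on this one. Pparg stood at 4.34, 3.05, 3.19 and 3.38 in knockout 1 to 4, against 2.34 and 4.45 in wild type 1 and 2, so that knockout 1 lay above wild type 1 and knockout 2, 3 and 4 below wild type 2, as on the deposited scale, while the order among those 3 knockout libraries was reversed.

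The wider pathway lists gave 0 calls by limma in either direction, with genotype alone or with library set in the model. Of 16 long-chain fatty acid carrier genes, 6 of them members, 9 were tested and 7 were too low, among them Fabp1 and Fabp2 at 0 in every library. Slc27a6, a transporter gene that is not a member, had 27.7, 1118, 1110 and 1139 counts in knockout 1 to 4, against 46.1 and 1010 in wild type 1 and 2. It differed between library sets by 4.86 on the log2 scale. Between genotypes it differed by 1.04 ± 1.97 (SE) with genotype alone and by −0.19 ± 0.21 (SE) with library set in the model. Of 19 genes of the lipoprotein lipase system, 14 were tested, 7 above and 7 below 0 (median log2 −0.01). The abundant receptor gene Lrp1 of that list ranged over 72815 to 121423 counts in knockout and 78914 to 103367 in wild type libraries. Of 11 acyl-CoA synthetase genes, which trap fatty acids in the cell, 8 were tested, 4 above and 4 below 0 (median 0.01). The most abundant, Acsl4, had 4025 to 7341 counts in knockout and 5383 to 5898 in wild type libraries.

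Of 16 PPAR and RXR receptor and cofactor genes, 15 were tested, 13 above and 2 below 0 (median log2 0.26), which became 10 above and 5 below with library set in the model (median 0.05). Of 34 PPAR target genes, 6 of them members, 26 were tested, 18 above and 8 below 0 (median 0.14, and 0.07 with library set in the model). Plin2, which coats lipid droplets, had 11296, 19769, 16401 and 12631 counts in knockout 1 to 4, against 11204 and 13430 in wild type 1 and 2. Of 21 fatty acid oxidation genes 20 were tested, 14 above and 6 below 0 (median 0.05). Cpt1a, which admits fatty acids to mitochondria, had 5763 to 10081 counts in knockout and 6116 to 7890 in wild type libraries. Of 21 lipid droplet and lipolysis genes 16 were tested, 9 above and 7 below 0 (median 0.20). Over all tested genes the median was 0.00, with 50.2% above 0.

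Among 13 regulators of fatty acid transport in endothelium, 12 were tested, 5 above and 7 below 0 (median log2 −0.12), and 2 above and 10 below 0 with library set in the model. Angpt2, a vessel growth factor gene, had 15504, 9494, 9118 and 8461 counts in knockout 1 to 4, against 21569 and 22699 in wild type 1 and 2. The genotypes did not overlap, as for 4.68% of all tested genes (log2 −1.0999 ± 0.26, SE, limma adjusted p = 1.00). Cav1, the gene of the membrane pit protein caveolin, had 35742, 9622, 9003 and 11504 counts in knockout 1 to 4, against 36935 and 10443 in wild type 1 and 2, and so parted the library sets. Meox2, a transcription factor gene of heart and muscle capillaries in mice, had 14.4, 574.9, 425.3 and 228.1 counts in knockout 1 to 4, against 0 and 259.2 in wild type 1 and 2, and its partner Tcf15 stayed between 0 and 3.65 counts. Vegfb, Flt1, Meox2, Tcf15, Fabp1 and Fabp2, and the markers Siglecf, Adipoq, Cfd, Pck1, Dcn, Car4, Hpgd and Tbx2, were named after their values were seen.

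Genes with the most similar pattern were sought among 12022 genes of mean at least 50 counts, by the root mean square difference of centred log2 values over the 6 libraries. Fabp5 was nearest to the ribosomal protein gene Rpl27a (0.02), with 1052 genes within 0.1 of it. Slc27a4 was nearest to Dbnl (0.03) and Slc27a3 to Impdh2 (0.05), with 634 and 251 genes within 0.1. Slc27a1 was nearest to Sdk2 (0.06), Fabp4 to Apc2 (0.07) and Angptl4 to Doc2b (0.10). No gene came within 0.1 of Lpl, Gpihbp1 or Pparg, whose nearest were Fam13c (0.24), Setbp1 (0.13) and Tmem2 (0.13). Between members, Slc27a3 and Fabp5 were the most alike (0.07).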

How the data were processed

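The deposited table gives a normalized count signal per gene and library, in which the authors scaled the reads of each library by its size factor. Per the submitters' processing notes, Trimmomatic 0.36, STAR 2.6.0c and featureCounts of Subread 1.6.1 were used with GRCm38.p6, whereas the series design text names Trimmomatic 0.32, STAR 2.4.2a, HTSeq, GENCODE M17 and DESeq2 1.10.1. The sources used here do not give which of these made the table or whether counting used the strand. In all 6 libraries 100% of values were whole multiples of the smallest, within 1e-06 of a read, so reads were recovered for edgeR 4.0.16 and DESeq2 1.42.0. No 2 libraries of a genotype agreed within sampling noise (chi-square per gene of 28.4 or more).

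Genotypes were compared in R 4.3.3 by limma 3.58.1 (eBayes with trend, two-sided) on log2(normalized count + 1) with genotype alone, over 15229 genes, adjusted by Benjamini-Hochberg at 0.05. This scale understates changes in genes with few counts. The library sets, read from the first principal component without the members, entered as a second term or as an interaction. Members, lists, sets and tests were chosen with earlier results of these data known. The naming rule took all 10 members, the 2 most abundant other genes of each pathway list, at most 3 markers per cell type and the 3 genes nearest to each member by pattern, of which some are not reported here. The endothelial scale was chosen after the values were seen. Levels per kilobase use the longest principal transcript of GENCODE M21. The fits were tested on 5 simulated data sets with known changes in genes of mean at least 50 counts. With genotype alone, 1.6% of 2-fold and 45% of 4-fold changes were called, with 0.2 false calls on average. With library set in the model, 56.6% and 93% were called, with 12 false calls on average. The absence of a call with genotype alone therefore does not exclude changes of these sizes. Other settings were pseudocounts, filters, scalings, no trend, array weights, other tools, leaving out each library, and blocking on the title number.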

Additional observations from a re-analysis of the deposited data

Results flagged for a closer look

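Gpihbp1 and Pparg had opposite genotype differences in the 2 library sets. Gpihbp1 was lower in knockout 1 than in wild type 1 and higher in knockout 2, 3 and 4 than in wild type 2, and its difference in the larger set exceeded that in the smaller by 1.402 ± 0.69 on the log2 scale (SE; 95% interval −0.47 to 3.27; limma adjusted p = 0.999). Pparg was higher in knockout 1 and lower in knockout 2, 3 and 4, with a difference between the sets of −0.88 ± 0.44 (SE; −2.09 to 0.32; limma adjusted p = 0.999). The test of the difference passed for neither gene. Opposite directions of this kind occurred in 19.4% of all tested genes. The smaller set has 1 library per genotype, and what sets these libraries apart was not tested.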

How the results depend on the processing

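No alternative called a member. Of 210 values of the 10 members under 21 alternatives of the genotype comparison, 195 kept their direction and 15 turned. In the larger library set alone the log2 differences were 0.21 for Angptl4, −0.080 for Slc27a1, 0.028 for Slc27a3 and 0.0037 for Fabp5. Array weights gave 0.16 for Slc27a3 and 0.033 for Fabp5, and TMM scaling and edgeR gave 0.011 and 0.0088 for Slc27a3. Leaving out each library gave ranges of −0.86 to 0.26 for Angptl4, −0.34 to 1.14 for Slc27a1, −0.074 to 0.033 for Slc27a3, −0.37 to 0.057 for Slc27a4 and −0.86 to 0.10 for Fabp4, with the upper end for Angptl4, Slc27a4 and Fabp4 and the lower end for Slc27a1 reached without wild type 1. Lpl and Gpihbp1 kept their direction, at 0.14 to 2.29 and 0.26 to 1.505, and Pparg at −1.03 to −0.36. Without wild type 1 the Lpl difference was 0.14 and without wild type 2 it was 2.29. The cause was not tested.

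Over all genes the number called was 2 with a pseudocount of 5, with array weights and by edgeR with library set in the model, 7 by DESeq2, 50 by DESeq2 with library set in the model, and 0 in the larger set alone (302 at an unadjusted p under 0.05). It was 0 to 2 with a library left out, against 1. With the title number as a replicate block 0 genes were called (781 at an unadjusted p under 0.05), Slc27a4 stood at 0.013 and no member was called; libraries 1 of both genotypes deviated together (r = 0.841) and libraries 2 likewise (r = 0.562), but so did knockout 3 and 4 with wild type 2 (r = 0.668 and 0.53), which follows the library sets, and the labels do not say that a number marks a shared source. All 110 member values of the interaction kept their direction. Without a filter the interaction called 2767 genes, of which 2733 had a mean under 10 counts and 2128 were above 0 in 1 library only, and 0 members. Depth limits Slc27a3 most, whose fewest reads, 86, carry a counting error of 10.8%, and with 2 wild type libraries the intervals of Lpl, Gpihbp1, Angptl4, Slc27a1, Fabp4 and Pparg include changes of over 2-fold.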
